A study of Rattus norvegicus with 12 samples.

Results

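Genes of DNA replication and mitosis were followed in rat laryngeal muscle 1 week after transection of the recurrent laryngeal nerve. A list of 43 cell division genes was matched by gene symbol to the platform annotation, and 36 were measured, of 14329 genes in all. They comprised 26 of 31 mitosis genes and 10 of 12 DNA replication genes. Mki67, Cenpf, Cenpe, Birc5, Anln, Mcm3 and Mcm4 carried no symbol of their own in that annotation and were not analysed here. Ccnb2 and Rrm2 had several probe sets, of which the one with the highest mean over the arrays was used.

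The 12 arrays held 4 groups of 3, all from male F344 rats under ketamine and xylazine anaesthesia: injured PCA, control PCA, injured AC and control AC. PCA is the posterior cricoarytenoid muscle, which opens the vocal folds, and AC is the laryngeal adductor complex, which closes them. Injured animals had the nerve cut on one side with 1 cm removed, and control animals had the same approach with the nerve left whole. The labels name 10 animals per surgery but not the animal, its age or any pooling behind an array. The p-values thus set differences between groups against only the spread of these arrays within groups, and that spread could be technical.

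A cell that prepares to divide loads the MCM helicase onto its DNA, makes deoxynucleotides, copies the DNA behind the sliding clamp Pcna, and then condenses and separates its chromosomes under the control of cyclins and their kinase Cdk1. The genes of the first steps are known to be switched on by E2F factors, and those of mitosis later by a MuvB complex with B-Myb and Foxm1 that binds the CHR element, often beside CCAAT boxes bound by NF-Y. Adult muscle fibres do not divide. In denervated muscle, satellite cells, fibroblasts, macrophages and Schwann cells are known to be able to do so, and basal cells of the laryngeal mucosa and blood cell precursors of marrow divide throughout life.

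The promoters of the 2 classes carried different motifs. RefSeq promoter windows on GRCr8, from 250 bases before to 50 after the gene start, were in the table for 34 of the 43 genes, 25 of mitosis and 9 of DNA replication. The CHR element TTTGAA, on either strand, was in 72% of the mitosis promoters (18 of 25) and in 11.1% of the DNA replication promoters (1 of 9, Mcm2), against 15.2% of the promoters of 11827 measured genes and 18.1% of all 27457 promoters. An E2F motif, taken as TTTGGCGC, TTTCCCGC, TTTCGCGC or TTTGCCGC on either strand, was in 4% of the mitosis promoters (1, Cdk1) and in 66.7% of the DNA replication promoters (6), against 3.09% of measured genes and 2.25% of all promoters. The CCAAT box, CCAAT on either strand, was in 72% (18) and 66.7% (6), against 38.3% and 37.7%. Matches of an E2F motif on both strands can overlap, as in Mcm6 and Mcm2. In the wider lists the CHR element was in 59.4% of 64 other mitosis promoters and 13.2% of 38 other replication promoters, and the E2F motif in 3.12% and 36.8%. A match describes letters in this window, not binding.

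**Figure D1:**
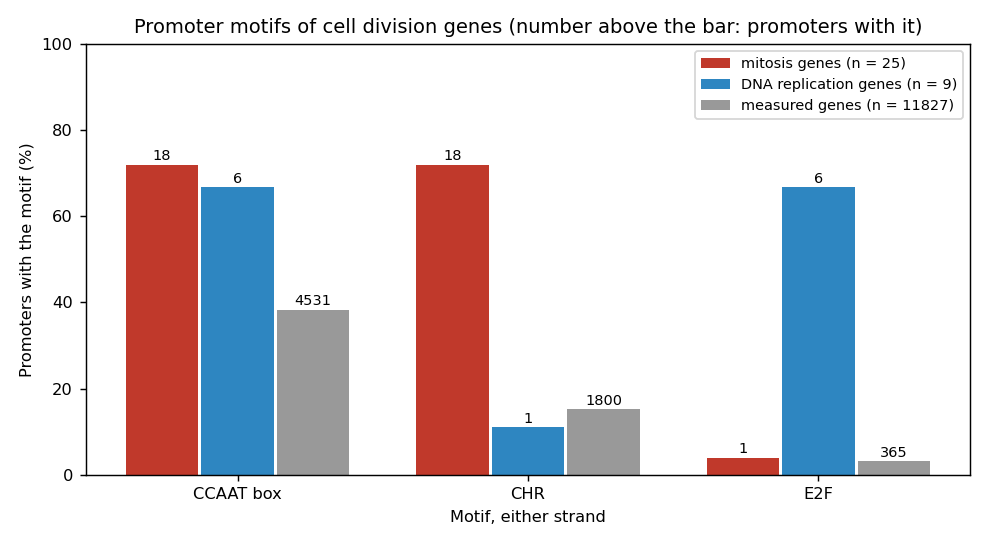
Share of promoter windows (percent, vertical axis) that hold a CCAAT box, a CHR element or an E2F motif on either strand, for 25 mitosis genes, 9 DNA replication genes and 11827 measured genes. The CHR bars stand at 72%, 11.1% and 15.2%, and the E2F bars at 4%, 66.7% and 3.09%.

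The 170 bases before the start of 8 genes are shown 5′ to 3′ on the gene's strand, with CCAAT boxes, CHR elements and E2F motifs in capitals, since these genes carry the results below. Cdk1 (chr20:19265123-19265292, plus strand), Ccnb2 (chr8:79981659-79981828, minus strand), Top2a (chr10:84473094-84473263, minus strand) and Kif23 (chr8:71320585-71320754, minus strand) stand for mitosis. Mcm6 (chr13:42404353-42404522, minus strand), Mcm5 (chr19:13488643-13488812, plus strand) and Mcm2 (chr4:122918095-122918264, minus strand) stand for DNA replication, and Rrm1 (chr1:166235734-166235903, plus strand) is a replication gene that did not pass the test in either muscle and has none of the motifs in these bases. The whole window of Rrm1, as counted above, does hold a CCAAT box, and its array values were low. Tk1, a replication gene that rose in injured PCA, has none of the motifs in its whole window and is not shown. The 8 genes were picked after motifs and values had been seen.
Cdk1: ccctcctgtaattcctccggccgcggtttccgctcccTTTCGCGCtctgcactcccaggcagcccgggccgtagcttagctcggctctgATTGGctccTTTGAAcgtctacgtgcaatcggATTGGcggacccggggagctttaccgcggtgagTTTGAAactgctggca
Ccnb2: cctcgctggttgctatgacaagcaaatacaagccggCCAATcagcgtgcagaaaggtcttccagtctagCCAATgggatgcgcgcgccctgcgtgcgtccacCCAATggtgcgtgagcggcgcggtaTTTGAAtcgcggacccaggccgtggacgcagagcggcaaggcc
Top2a: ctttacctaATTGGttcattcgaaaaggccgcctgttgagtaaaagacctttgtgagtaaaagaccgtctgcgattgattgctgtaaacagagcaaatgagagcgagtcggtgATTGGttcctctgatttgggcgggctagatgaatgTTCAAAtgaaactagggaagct
Kif23: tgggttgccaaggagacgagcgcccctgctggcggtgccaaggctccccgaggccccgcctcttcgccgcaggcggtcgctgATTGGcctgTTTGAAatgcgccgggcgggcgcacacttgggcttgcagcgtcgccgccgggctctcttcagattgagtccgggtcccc
Mcm6: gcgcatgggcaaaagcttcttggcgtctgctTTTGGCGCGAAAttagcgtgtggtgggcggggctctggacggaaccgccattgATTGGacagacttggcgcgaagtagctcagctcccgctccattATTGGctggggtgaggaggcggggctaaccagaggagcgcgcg
Mcm5: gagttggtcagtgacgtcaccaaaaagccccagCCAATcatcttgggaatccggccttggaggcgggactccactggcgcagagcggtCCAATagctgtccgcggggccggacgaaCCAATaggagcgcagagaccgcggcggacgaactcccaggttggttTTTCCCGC
Mcm2: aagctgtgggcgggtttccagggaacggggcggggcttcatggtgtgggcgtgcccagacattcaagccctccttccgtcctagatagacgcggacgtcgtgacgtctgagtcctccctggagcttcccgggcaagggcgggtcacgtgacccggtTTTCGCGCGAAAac
Rrm1: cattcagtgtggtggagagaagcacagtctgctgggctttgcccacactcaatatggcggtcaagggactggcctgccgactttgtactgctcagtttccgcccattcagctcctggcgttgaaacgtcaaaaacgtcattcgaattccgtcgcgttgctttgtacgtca
Cdk1 holds E2F, CCAAT and CHR motifs in one window, with a CHR element beginning 72 and 16 bases before the start. In Kif23 the CCAAT box begins 88 bases and the CHR element 79 bases before the start. The E2F motifs of Mcm2 begin 14 and 10 bases before it.

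The first question was how these genes differed in the PCA after nerve transection. Of the 36 genes 32 rose in injured PCA, 23 of 26 in mitosis and 9 of 10 in DNA replication, and none fell (limma, adjusted p under 0.05 over all 14329 genes). Over all genes 13.3% were called higher in that comparison. The median difference was 1.06 on the log2 scale for mitosis and 0.66 for DNA replication, against -0.03 over all genes. In 32 genes all 3 injured arrays lay above all 3 controls, as in 18.2% of all genes. All values below are log2 array values, which are set against the rest of the same array, and a difference is followed by its SE from limma (n = 3 arrays per group). In whole muscle a greater number of dividing cells and more of these transcripts per cell cannot be told apart.

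Averaged over the 26 mitosis genes, the arrays stood at 7.54, 7.27 and 7.54 in injured PCA, against 6.42, 6.50 and 6.38 in control PCA. Over the 10 DNA replication genes they stood at 7.73, 7.51 and 7.73, against 6.81, 6.97 and 6.77. Both classes separated the PCA groups without overlap, and PCA injury 2 was the lowest injured array in both. The mitosis mean was 7.54, 7.68 and 7.53 in injured AC and 7.53, 7.16 and 7.25 in control AC, and the DNA replication mean 7.70, 7.77 and 7.71 and 7.62, 7.41 and 7.52. Control PCA was thus the one low group, while control AC lay near both injured groups.

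**Figure D2:**
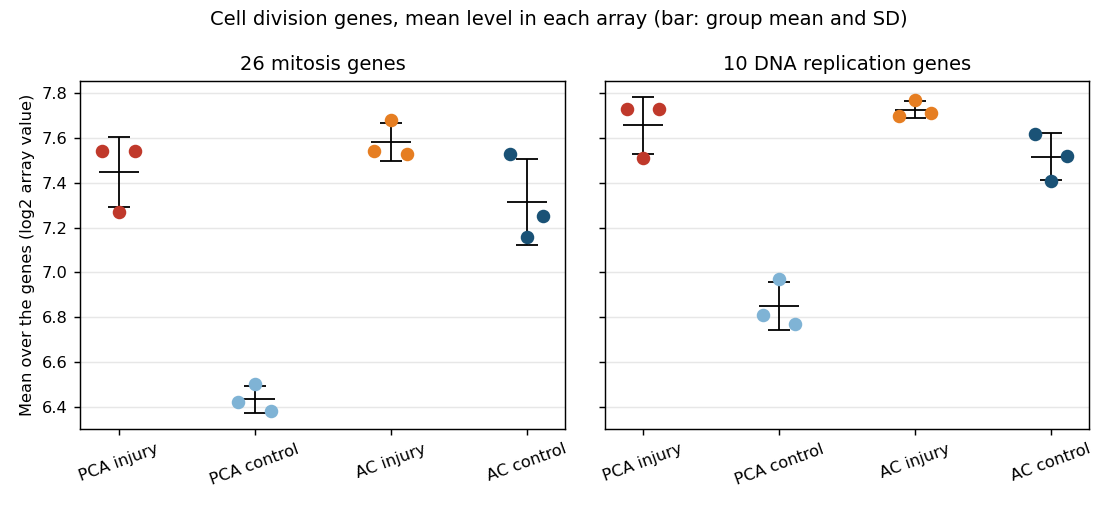
Mean log2 value of the 26 mitosis genes (left) and the 10 DNA replication genes (right) in each array, by group, with the group mean and SD (n = 3). Control PCA lies at 6.38 to 6.50 for mitosis and 6.77 to 6.97 for DNA replication, below every array of the other groups.

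Among the cyclins and the mitotic kinase, Ccna2, the cyclin of S phase and early mitosis, had 8.40, 7.89 and 8.28 in injured PCA, against 6.34, 6.45 and 6.36 in controls. It rose by 1.81 ± 0.15, or 3.50-fold (adjusted p = 0.000173, limma). Cdk1 had 7.19, 6.58 and 7.23 against 5.41, 5.63 and 5.70, and rose by 1.42 ± 0.18. The mitotic cyclin Ccnb1 had 7.52, 7.17 and 7.52 against 5.86, 6.20 and 5.97, and rose by 1.39 ± 0.17. Ccnb2, which partners Cdk1 as Ccnb1 does, was less far apart, with 7.55, 7.36 and 7.75 against 6.51, 6.87 and 6.67 (0.87 ± 0.13). In all of these the injured and control arrays did not overlap. Foxm1, the transcription factor of mitotic genes, rose by 0.68 ± 0.10, with 8.25 to 8.51 in injured PCA and 7.56 to 7.78 in controls.

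Top2a, Nusap1, Kif11, Kif20a, Kif23 and Prc1, which act on chromosomes and the spindle, rose as well, while Tpx2, described further on, did not pass. Top2a, the topoisomerase that untangles sister chromosomes, had 8.43, 8.05 and 8.44 in injured PCA, against 6.73, 6.82 and 6.67 in controls (1.57 ± 0.14). Nusap1, which stabilises spindle microtubules, had 7.90, 7.58 and 8.02 against 6.17, 6.25 and 6.42 (1.55 ± 0.14). The kinesin motors Kif11, which pushes the spindle poles apart, Kif20a and Kif23, both of the cleavage stage, rose by 1.17 ± 0.13, 1.12 ± 0.15 and 1.29 ± 0.15. Kif23 had 7.64, 7.34 and 7.79 against 6.18, 6.46 and 6.27. Prc1, which bundles the microtubules of the spindle midzone, rose by 1.23 ± 0.15.

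Kinetochore and checkpoint genes rose by unequal amounts. Ndc80, which ties kinetochores to microtubules, had 6.78, 6.53 and 6.80 in injured PCA, against 5.08, 5.35 and 5.44 in controls (1.41 ± 0.18). The checkpoint kinase Ttk had 6.09, 5.75 and 6.03 against 4.91, 4.91 and 4.51 (1.18 ± 0.15). Mad2l1, the checkpoint protein that holds back Cdc20, rose by 0.94 ± 0.17, and Cdc20, which starts anaphase, by 1.01 ± 0.18. The checkpoint kinases Bub1 and Bub1b rose by 0.83 ± 0.15 and 0.72 ± 0.17. Of the other mitotic kinases, Plk1 rose by 1.55 ± 0.18, Melk by 0.72 ± 0.19 and Aurka, the kinase of the spindle poles, by 0.38 ± 0.09. Cdca8, a subunit of the chromosomal passenger complex, rose by 0.45 ± 0.08, and Racgap1, which works with Kif23 in cell cleavage, by 0.69 ± 0.14.

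In DNA replication the greatest difference was in Rrm2, the regulated small subunit of the enzyme that makes deoxynucleotides. It had 8.62, 8.23 and 8.77 in injured PCA, against 5.90, 6.86 and 6.32 in controls, and rose by 2.18 ± 0.22, or 4.53-fold (adjusted p = 0.000238, limma). Its partner Rrm1, the large subunit, had 4.70, 4.55 and 4.64 against 4.55, 4.39 and 4.37 and did not pass (0.19 ± 0.07, adjusted p = 0.0824, limma). The control and injured values of Rrm1 met at 4.55, and it was called without PCA control 1. Rrm1 had the lowest group means of the 36 genes, with 4.37 to 4.70 over the 12 arrays, where array medians were 7.11 to 7.17. At so low a level its probe set may miss a rise. All 4 measured subunits of the MCM helicase rose: Mcm5 by 1.07 ± 0.17, Mcm6 by 0.97 ± 0.11, Mcm2 by 0.67 ± 0.09 and Mcm7 by 0.37 ± 0.09.

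Mcm6 had 7.70, 7.36 and 7.55 in injured PCA, against 6.63, 6.61 and 6.45 in controls. Mcm5 had 7.52, 6.99 and 7.4 against 5.95, 6.58 and 6.16, and Mcm2 had 8.90, 8.74 and 8.89 against 8.07, 8.27 and 8.17. None of these overlapped between the groups. Pcna had 9.21, 9.13 and 9.41 against 8.67, 8.42 and 8.46 (0.73 ± 0.10). The thymidine nucleotide enzymes Tyms and Tk1 rose by 0.64 ± 0.11 and 0.61 ± 0.09, and E2f1, an E2F factor, by 0.60 ± 0.14.

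Of the 36 genes 4 did not pass in the PCA: Rrm1, Tpx2, Aurkb and Ube2c. Tpx2, a spindle assembly factor that activates Aurka, had 8.31, 8.37 and 8.31 in injured PCA, against 8.70, 7.05 and 6.43 in controls (0.94 ± 0.42, adjusted p = 0.131, limma). PCA control 1 was above every other array for Tpx2, and it was the highest control for Ect2, a cleavage factor that rose (7.48, 7.90 and 7.76 against 7.27, 6.23 and 5.89; 1.25 ± 0.29). That array also had the highest thyroid and parathyroid marker mean, 9.83, followed by PCA injury 2 with 9.63 and AC injury 2 with 8.46, while the other 9 arrays lay at 6.40 to 7.2. Without these 3 arrays Tpx2 was called and 33 of the 36 genes rose in injured PCA. Tpx2 was called as well when PCA control 1 alone was left out, and with array weights. The fit without PCA control 1 and the fit without the 3 arrays both leave that array out. The marker mean also hides single genes of the list. Tg stood at 13.1 for PCA control 3, against 5.96 for PCA control 2, while injured PCA arrays 1 and 3 had 11.34 and 8.44. The arrays kept were therefore not all low in Tg. The part of thyroid tissue in these values was not tested.

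Aurkb, the kinase of the chromosomal passenger complex, had 9.97, 9.62 and 9.36 in injured PCA, against 8.70, 9.25 and 10.07 in controls, so that the groups overlapped (0.31 ± 0.33, adjusted p = 0.548, limma). Ube2c, the ubiquitin-conjugating enzyme of the anaphase-promoting complex, had 7.73, 7.96 and 7.97 against 7.69, 7.83 and 7.98 (0.05 ± 0.10, adjusted p = 0.764, limma). Its 95% interval ran from -0.18 to 0.28. That of Cdc20, which activates the same complex, ran from 0.61 to 1.40. The pattern of Aurkb over the 12 arrays had a Pearson r of -0.060 with the mean of the other members, Ube2c 0.471 and Tpx2 0.609, where Ccna2 and Ccnb1 had 0.994. These correlations describe arrays that share the 4 group means, and they have no test.

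**Figure D3:**
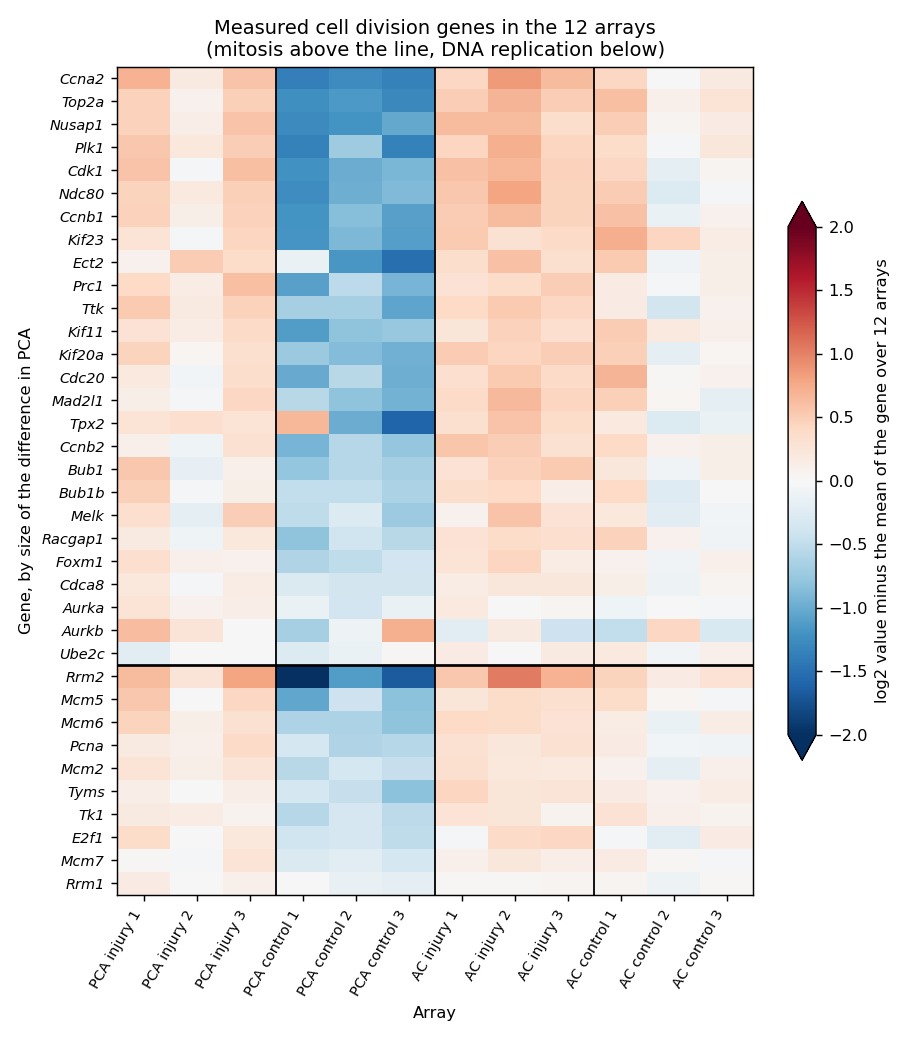
Log2 value of each measured cell division gene in each array, minus the mean of that gene over the 12 arrays (red higher, blue lower). The 3 control PCA columns are blue for most genes, and Tpx2 in PCA control 1 and Aurkb in PCA control 3 are the visible exceptions.

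The next question was how the genes differed in the AC after the same injury. None of the 36 was called in injured AC, where 1.15% of all genes were called higher and 0.761% lower (1.91% in either direction), and 10 of the 36 had an unadjusted p under 0.05, where 20.3% of all genes did (limma, the one tool run). Even so, 34 of the 36 differences were above 0, with a median of 0.27 for mitosis and 0.21 for DNA replication, against 0.02 over all genes. All 3 injured arrays lay above all 3 controls in 14 of the 36 genes, and in 15.3% of all genes. In none did all injured arrays lie below all controls, as they did in 13.1% of all genes.

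Ttk had the smallest p of the mitosis genes in the AC, with 5.97, 6.09 and 5.99 in injured AC, against 5.74, 5.21 and 5.65 in controls (0.48 ± 0.15, adjusted p = 0.113, limma). Ndc80 had 6.87, 7.11 and 6.78 against 6.83, 6.06 and 6.31 (0.52 ± 0.18), and Ccna2 had 8.12, 8.56 and 8.34 against 8.12, 7.71 and 7.88 (0.44 ± 0.15). AC control 1 was the highest control in all of these and reached the injured values of Ndc80 and Ccna2. Among the replication genes Mcm6 had 7.65, 7.61 and 7.54 in injured AC, against 7.39, 7.11 and 7.39 in controls (0.30 ± 0.11, adjusted p = 0.141, limma). Pcna had 9.33, 9.25 and 9.33 against 9.19, 8.97 and 8.95 (0.27 ± 0.10), and Mcm2 had 8.94, 8.83 and 8.82 against 8.71, 8.45 and 8.73 (0.23 ± 0.09). Of Mcm6, Pcna and Mcm2, no injured array overlapped the controls, though none passed the test. Top2a had 8.46, 8.65 and 8.45 in injured AC, against 8.56, 8.07 and 8.24 in controls, a difference of 0.23 with a 95% interval from -0.07 to 0.53. Kif23 stood at 7.89, 7.67 and 7.74 against 8.09, 7.79 and 7.52 (-0.03 ± 0.15).

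**Figure D4:**
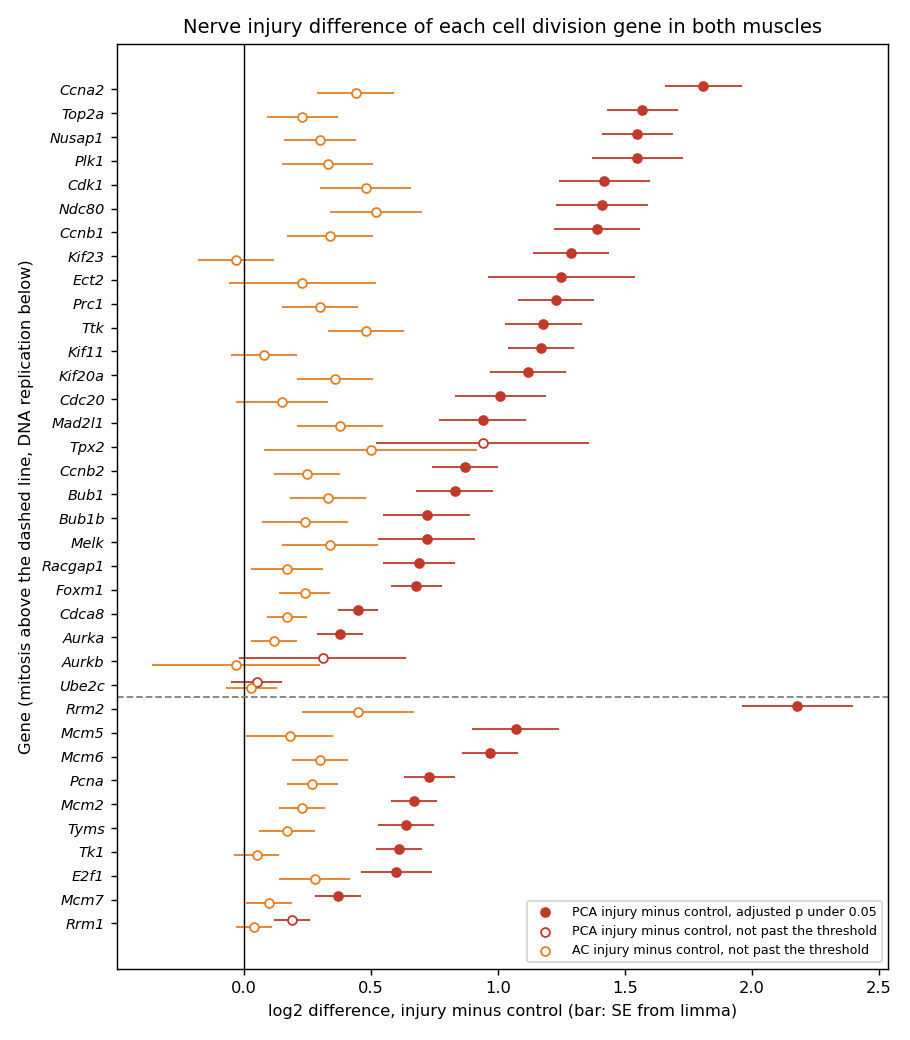
Log2 difference, injury minus control, of each measured cell division gene in PCA (red) and AC (orange), with the SE from limma; filled points passed an adjusted p of 0.05. Of the 36 PCA points 32 are filled and none of the AC points, which lie between -0.03 and 0.52.

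The 2 injury effects were compared directly as the PCA difference minus the AC difference. It was above 0 for all 36 genes, with a median of 0.73 for mitosis and 0.47 for DNA replication, against -0.05 over all genes, and it passed in 4 mitosis genes, where 0.126% of all genes were called in that direction, 0.0279% in the other and 0.154% in either (limma). These were Ccna2 (1.37 ± 0.21, adjusted p = 0.0419), Top2a (1.34 ± 0.19, adjusted p = 0.0327), Nusap1 (1.25 ± 0.20, adjusted p = 0.0458) and Kif23 (1.32 ± 0.21, adjusted p = 0.0458). Rrm2 had the greatest difference of effects, 1.73 ± 0.32, and did not pass (adjusted p = 0.0615). At an unadjusted p under 0.05 there were 27 of the 36, and 15.7% of all genes. The 4 calls depended on single arrays: none was left without AC control 1 or 3, without any one of the injured AC arrays, without PCA control 1 or 3, or without PCA injury 1 or 3. There was 1 call without AC control 2, 4 without PCA injury 2 and 11 without PCA control 2. In these fits the calls over all genes ran from 0 to 406 as well, where 22 were called with all arrays. The median difference of the 36 genes stayed at 0.52 to 0.69, against 0.59 with all arrays.

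Uninjured PCA was then compared with uninjured AC. Of the 36 genes 29 were lower in control PCA than in control AC, 21 in mitosis and 8 in DNA replication, and none was higher, where 7.39% of all genes were called lower and 3.24% higher (limma). The median was -0.95 for mitosis and -0.57 for DNA replication, against 0.04 over all genes. In 32 genes all 3 PCA controls lay below all 3 AC controls, as in 15.9% of all genes. Rrm2 had 5.90, 6.86 and 6.32 in control PCA, against 8.43, 8.15 and 8.27 in control AC (-1.92 ± 0.22, adjusted p = 0.00158, limma). Top2a had 6.73, 6.82 and 6.67 against 8.56, 8.07 and 8.24 (-1.55 ± 0.14), Ccna2 6.34, 6.45 and 6.36 against 8.12, 7.71 and 7.88 (-1.52 ± 0.15), and Kif23 6.18, 6.46 and 6.27 against 8.09, 7.79 and 7.52 (-1.5 ± 0.15). Mcm6 (-0.73 ± 0.11), Pcna (-0.52 ± 0.10) and Mcm2 (-0.46 ± 0.09) were lower too. Aurka (-0.18 ± 0.09), Aurkb (0.10 ± 0.33), Tpx2 (-0.57 ± 0.42), Ube2c (-0.20 ± 0.10), Melk (-0.48 ± 0.19), Rrm1 (-0.09 ± 0.07) and E2f1 (-0.39 ± 0.14) did not pass. This comparison and the injury comparison in the PCA use the same PCA controls, so that low values there enter both.

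Injured PCA and injured AC were not told apart on these genes. None of the 36 was called, as was none of all genes (0%), and 1 of the 36, Ccnb2, had an unadjusted p under 0.05, where 3.61% of all genes did (limma), so that its difference is given as a value only. Ccnb2 had 7.55, 7.36 and 7.75 in injured PCA, against 7.99, 7.93 and 7.75 in injured AC (-0.34 ± 0.13, 95% interval -0.62 to -0.05). The median difference was -0.15 for mitosis and -0.06 for DNA replication, against -0.01 over all genes. For Ccna2 the difference was -0.15 with an interval from -0.48 to 0.18, for Top2a -0.21 with -0.51 to 0.09, for Rrm2 -0.20 with -0.69 to 0.30, and for Mcm6 -0.06 with -0.30 to 0.17. Of the 36 genes, 3 had all injured PCA arrays below all injured AC arrays (Top2a, Racgap1 and Tyms), as 4.28% of all genes did, and none had all above, as 2.21% of all genes did.

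Other genes of the same processes were counted from lists that hold none of the 36. Of 50 other measured mitosis genes 42 rose in injured PCA and none fell, with a median of 0.71, and 2 rose in injured AC. Over all genes 13.3% were called higher in injured PCA and 1.15% in injured AC (limma). Pttg1, the securin that guards sister chromosomes, rose by 1.32 ± 0.13, the centriole kinase Plk4 by 1.33 ± 0.14 and cyclin Ccnf by 1.04 ± 0.12 in the PCA, where Nuf2, a partner of Ndc80, rose by 0.98 ± 0.13. The 2 that rose in injured AC were Plk4 (0.71 ± 0.14, adjusted p = 0.0358, limma) and Fbxo5, an inhibitor of the anaphase-promoting complex (0.43 ± 0.09, adjusted p = 0.0367, limma). Nuf2 (0.51 ± 0.13) and Cit, the citron kinase of cell cleavage (0.45 ± 0.12), did not pass there. Of these 50 genes 32 were lower in control PCA than in control AC, as were 7.39% of all genes.

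Of 39 other measured replication genes 14 rose and 1 fell in injured PCA, with a median of 0.23 (limma). Over all genes 13.3% were called higher and 12.5% lower in that comparison. None of the 39 passed in injured AC, and 5 had an unadjusted p under 0.05, where 20.3% of all genes did. Dnmt1, which copies DNA methylation, rose by 0.61 ± 0.07, Brca1, of DNA repair, by 0.58 ± 0.08, the primase Prim1 by 0.81 ± 0.14 and the helicase loader Cdc6 by 0.80 ± 0.15. The member that fell, named after its value was seen, was Rpa1, which covers single-stranded DNA (-0.30 ± 0.09). Fen1 (0.03 ± 0.10), which trims lagging strands, and Brca2 (0.25 ± 0.13) did not pass in the PCA. Of 18 measured cyclins, kinases and E2F-Rb factors of the step into S phase 10 rose in injured PCA, among them Ccne1, the cyclin that starts S phase (1.27 ± 0.12), Cdk6 (0.58 ± 0.09), Ccne2 (0.53 ± 0.09) and Cdk4 (0.33 ± 0.10). Ccnd1, a cyclin induced by growth signals, did not pass (0.28 ± 0.11), and Ccne1 was the 1 gene of this list that rose in injured AC (0.56 ± 0.12, adjusted p = 0.0478, limma).

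Of 6 inhibitors of the cyclin-dependent kinases 3 rose in injured PCA and 1 in injured AC. Over all genes 13.3% and 1.15% were called higher. Cdkn1a, the p21 inhibitor induced by stress and differentiation, rose by 1.1 ± 0.21 in the PCA and by 1.09 ± 0.21 in the AC. Cdkn2c rose by 0.69 ± 0.11 and Cdkn2b by 0.65 ± 0.12 in the PCA, while they stood at -0.05 ± 0.11 and -0.04 ± 0.12 in the AC. Cdkn1b (0.03 ± 0.07 in PCA, -0.11 ± 0.07 in AC) and Cdkn1c (0.09 ± 0.17 and 0.38 ± 0.17) did not pass in either muscle.

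Outside the 36 genes, those whose pattern over the 12 arrays was most like the mean of the 36 were Kpna2, a nuclear import carrier (Pearson r = 0.995), Stmn1, a microtubule regulator (0.987), Jpt1 (0.985), Ska3 of the kinetochore (0.985), Dnmt1 (0.984), Ccnf (0.981), the ribosomal protein gene Rps2 (0.980) and the gap junction gene Gja1 (0.978). Kpna2 had 9.93, 9.58 and 9.91 in injured PCA and 8.77, 8.92 and 8.88 in control PCA. In injured AC it had 9.97, 10.09 and 9.92, against 9.88, 9.55 and 9.61 in control AC. The r describes 12 arrays in 4 groups, so that any gene low in control PCA alone scores high. Rps2 has near-identical copies in the genome, and its value is uncertain for that reason.

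Muscle fibre markers, which define the labelled tissue, were present in all 12 arrays at a mean of 12.23 to 13.16. In injured PCA, where 13.3% of all genes rose, all 7 measured squamous epithelium markers, of the lining that covers the vocal folds, rose. Their mean was 10.94 to 11.47 in injured PCA and 7.98 to 10.40 in control PCA, and it was 11.05 to 11.53 in injured AC and 11.46 to 11.95 in control AC. Within the PCA controls this mean was 8.8, 10.40 and 7.98, while the mitosis mean was 6.42, 6.50 and 6.38. With the squamous mean of each array as a covariate the median difference of the 36 genes in the PCA was 0.80 with a median SE of 0.26, against 0.94 and 0.15 without it, and 4 genes were called (Ccna2, Kif11, Nusap1 and Top2a). Between control PCA and control AC the median was then -0.60 with a median SE of 0.29, against -0.76 and 0.15 without it. None was called there with the covariate (19 at an unadjusted p under 0.05). The covariate itself differs between the groups compared. With it both medians were smaller in size and both median SEs were greater. The part of epithelium in the difference of the 36 genes was not tested further.

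Of 15 measured macrophage markers 14 rose in injured PCA, where their mean was 10.04 to 10.5, against 8.28 to 9.0 in control PCA. In the AC 3 of them rose, with a mean of 9.85 to 10.28 in injured and 9.20 to 9.48 in control AC. Over all genes 13.3% were called higher in injured PCA and 1.15% in injured AC. Of 10 fibroblast markers 7 rose in the PCA (10.89 to 11.21 in injured, 9.78 to 10.26 in control) and 1 in the AC (10.78 to 11.21 and 10.19 to 10.72). Of 7 satellite cell and myoblast markers 3 rose in the PCA (7.85 to 8.41 and 7.07 to 7.44) and 6 in the AC (8.35 to 8.47 and 6.86 to 7.28). Pax7, the defining satellite cell gene, was not measured here. The part of each cell type in the cell division genes was not tested.

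Markers of blood cell precursors went the other way in the AC. Over all genes 0.761% were called lower in injured AC, and 7.39% lower in control PCA than in control AC. Of 8 granulocyte precursor markers 4 fell in injured AC, with a mean of 6.14 to 6.60 in injured and 7.13 to 7.72 in control AC, and 6 were lower in control PCA (5.83 to 5.97) than in control AC. Of 7 red cell precursor markers 4 fell in injured AC (5.98 to 6.41 in injured, 7.01 to 7.58 in control), and the mean was 5.99 to 6.24 in control PCA. Ngp, a granule protein of neutrophil precursors, had 5.53, 5.04 and 7.55 in injured AC, against 8.78, 9.89 and 9.02 in control AC. Mpo, the peroxidase of the same cells, had 6.15, 6.17 and 6.75 against 7.85, 9.19 and 8.41. AC control 2, the array with the highest granulocyte precursor mean (7.72), had the lowest mitosis mean of the AC controls (7.16). Without a covariate the median difference of the 36 genes between injured and control AC was 0.24, with a median SE of 0.15 (none called). With the mean of both precursor lists as a covariate it was -0.07, with a median SE of 0.35 (none called). That mean was 7.07 to 7.65 in control AC and 5.91 to 6.51 over the other groups. The covariate can thus hardly be told apart from the control AC group, and the fits with it do not give an effect free of it. Between control PCA and control AC the median was -1.29 with that covariate (median SE 0.41, none called), against -0.76 without it (median SE 0.15, 29 called). With the covariate no gene at all was called in either comparison. Without it 274 of all genes were called for injury in AC and 1523 between the control muscles (limma). The missing calls are thus not particular to the 36 genes. The count of rises in injured PCA was 32 with that covariate too.

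**Figure D5:**
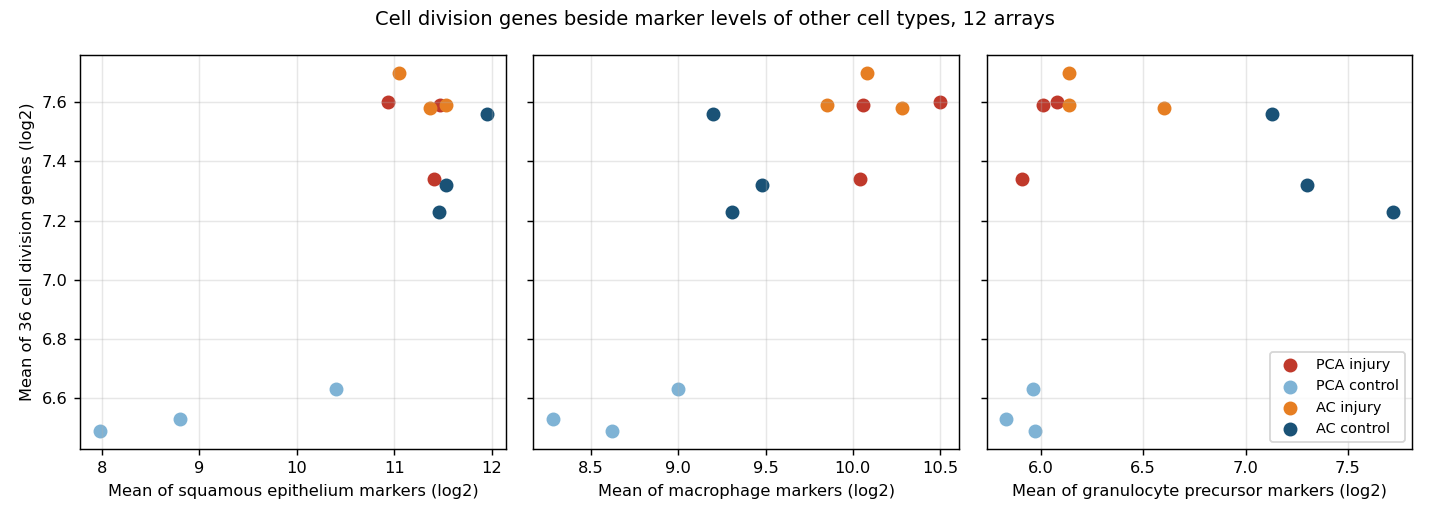
Mean log2 value of the 36 cell division genes (vertical axis) against the mean of squamous epithelium, macrophage and granulocyte precursor markers (horizontal axes, log2) in each of the 12 arrays, coloured by group. The 3 control PCA arrays lie at 6.49 to 6.63 on the vertical axis at squamous means from 7.98 to 10.40, and the control AC arrays stand apart to the right in the granulocyte panel.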

How the data were processed

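Total RNA from laryngeal muscle was hybridised to whole-transcript rat arrays, per the labels' protocols. The authors deposited 1 log2 value per probe set and array; per the submitters' processing notes RMA and Partek were used, with version, order and build not given in the sources used here, and the log base was taken from the range of values (2.57 to 14.04). Values from RMA are quantile-normalised and so relative within an array. Array medians lay between 7.11 and 7.17; the number of arrays limits the precision.

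Of 27342 probe sets 15103 had 1 symbol, 317 several and 11922 none; the last 2 kinds were not used. Symbols were checked through gene identifiers (15067 matched, 36 did not). Per gene the probe set with the highest mean was kept, which left 14329 genes. A limma model (limma 3.58.1, R 4.3.3; 8 residual and 3.14 prior degrees of freedom) with 1 mean per group gave 5 contrasts, two-sided, with p adjusted by Benjamini and Hochberg's method over the 14329 genes within each contrast and a threshold of 0.05. On simulated data with 14329 genes it recovered 68.7% of 1.5-fold and 86.6% of 2-fold changes for injury in PCA, and 58.2% and 86.6% for injury in AC. Both runs used the same spread per gene with independent genes, so they do not rank the muscles. Each run raised 67 genes by 1.5-fold, 67 by 2-fold and 66 by 4-fold, with 8 false calls for PCA and 6 for AC. In the data 25.8% of all genes were called for injury in PCA. The adjusted threshold depends on that share, so the recovery need not hold there. Changes smaller than 1.5-fold were not simulated. Plots were drawn with matplotlib 3.10.9.

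The genes, lists, tests and alternatives were chosen with earlier results of these data known. All 43 listed genes could be named. The rule gave values in every array to the 3 genes per class with the smallest p in each muscle and to those that did not rise in both muscles; since none passed in the AC that takes in all, and such values are given for part of them. From each other list it took the 3 with the smallest p per muscle and the first listed, and it took the 8 genes most like the members. Marker lists were muscle fibre, squamous epithelium, macrophage, fibroblast, satellite cell, Schwann cell, endothelial, lymphocyte, granulocyte, red cell and B cell precursor, and thyroid with parathyroid.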

Additional observations from a re-analysis of the deposited data

Results flagged for a closer look

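Of the mitosis genes 4 were marked because the injury difference itself differed between the muscles in limma's test of the difference, PCA minus AC: Ccna2 by 1.37, Top2a by 1.34, Nusap1 by 1.25 and Kif23 by 1.32 on the log2 scale. The injury differences were 1.81 in PCA and 0.44 in AC for Ccna2, 1.57 and 0.23 for Top2a, 1.55 and 0.30 for Nusap1, and 1.29 and -0.03 for Kif23. For the same genes control PCA minus control AC was -1.52, -1.55, -1.40 and -1.5, and injured PCA minus injured AC was -0.15, -0.21, -0.15 and -0.18, so that the muscles stood apart in controls and close together after injury. Marker means of squamous epithelium and of blood cell precursors also differed between the control groups, and their part in these differences was not tested.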

How the results depend on the processing

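The count of 32 rises in injured PCA was 29 to 33 under median centring, the mean of probe sets, a trended robust prior, array weights, the replicate block, a fit of the compared groups alone, an adjusted p of 0.01, the marrow covariate, or without the 3 arrays with high thyroid means, and 31 to 34 with single arrays left out. It was 16 when the dimmest 40% of genes were left out, which kept 19 of the 36 genes, and 4 with the squamous covariate. The count of 29 genes lower in control PCA than in control AC was 16 of 19 without dim genes, 0 with the squamous covariate (19 at an unadjusted p under 0.05) and 0 with the marrow covariate (25), and 23 to 29 with single arrays left out. The 4 genes whose injury effects differed stayed 4 with the mean of probe sets, and were 5 with the trended robust prior and 5 of 19 without dim genes. They became 1 under median centring, 10 with array weights, and 0 to 11 with single arrays left out. There were 0 at an adjusted p of 0.01, without the 3 thyroid-high arrays, with the squamous covariate, with the marrow covariate or with the replicate block. No gene of the 36 was called for injury in AC, or between the injured muscles, in any of these settings (0 to 0 with single arrays left out). No called gene changed sign.

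Same-numbered arrays of different groups had correlations of deviations from -0.393 to 0.339. Arrays of unlike number were not compared in this way, so whether replicate numbers pair the arrays stayed unknown. With the replicate block the count of rises in the PCA was 32 and of genes lower in control PCA 28. Over all genes the calls ran from 259 (squamous covariate) to 3906 (array weights) for injury in PCA, where 3697 were called, with 2257 for the 2 groups alone, and from 0 (marrow covariate) to 703 (array weights) for injury in AC, where 274 were called. They ran from 0 (marrow covariate) to 2626 (array weights) for the control muscles, where 1523 were called, and from 0 to 406 for the difference of effects, where 22 were called. With 3 arrays per group and no read depth, the spread between arrays sets what can be detected.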

Other observations

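Markers of further cell types were counted in the same way. Over all genes 13.3% were called higher and 12.5% lower in injured PCA (limma). In injured AC 1.15% were called higher and 0.761% lower, and 20.3% had an unadjusted p under 0.05. Single calls in these short lists are given as counts only. Of 7 measured endothelial markers none passed for injury in either muscle in limma (0 in PCA and 3 in AC at an unadjusted p under 0.05), with medians of 0.04 in PCA and 0.28 in AC. Of 9 Schwann cell markers 1 rose and 2 fell in injured PCA and none passed in injured AC (6 at an unadjusted p under 0.05), with a median of -0.19 in both. Of 7 lymphocyte markers 1 rose in injured PCA and none passed in injured AC (1 at an unadjusted p under 0.05), and of 5 B cell precursor markers 1 fell in each muscle. Of 10 muscle fibre markers 5 fell in injured PCA and none passed in injured AC (1 at an unadjusted p under 0.05). Of 13 thyroid and parathyroid markers none passed for injury in either muscle (0 in PCA and 1 in AC at an unadjusted p under 0.05).

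The mitosis mean minus the DNA replication mean of an array was -0.19, -0.23 and -0.19 in injured PCA, against -0.39, -0.48 and -0.39 in control PCA, without overlap. It was -0.15, -0.09 and -0.18 in injured AC, against -0.09, -0.25 and -0.27 in control AC, which overlapped. The difference rests on which genes form the means and has no test.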
